A study of Mus musculus with 2 samples.

Results

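The genes described here encode 7 receptors through which hormones of energy balance and growth act on the brain: the leptin receptor Lepr, the insulin receptor Insr, the insulin-like growth factor 1 receptor Igf1r, the growth hormone receptor Ghr, the melanocortin receptors Mc3r and Mc4r, and the glucagon-like peptide 1 receptor Glp1r. They were taken by symbol from the 32289 features of the count matrices, and all 7 were present. Their unique molecular identifiers (UMIs, each standing for 1 captured RNA molecule) were counted over barcodes with at least 500 genes and at most 5% mitochondrial UMIs.

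Nuclei from the anterior hypothalamus of male mice, dissected to include the preoptic area, were profiled for RNA on the 10x Genomics platform. The aged library came from the pooled tissue of 5 mice aged 22 months, and the young library from that of 5 mice aged 3 months, which the labels call wild-type. Neither strain nor treatment is named in the sources used here, and the genotype of the aged mice is not stated. Since each age has a single library, nothing was replicated and no test was made. Every interval below is a 95% interval that covers counting error only, and age, pool of mice and library cannot be told apart.

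Leptin, made by fat, and insulin, made by the pancreas, tell the hypothalamus how much energy the body holds, and GLP-1 from the gut and hindbrain lowers food intake. The melanocortin receptors couple to adenylyl cyclase and are switched on by peptides cut from Pomc and held down by Agrp, while Lepr and Ghr are cytokine receptors that signal through Jak2 and STAT proteins. Insr and Igf1r are receptor tyrosine kinases that act through Irs adaptors, phosphoinositide 3-kinase and Akt.

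By the GENCODE M21 annotation (GRCm38), Lepr (ENSMUSG00000057722) lies at chr4:101717404-101815352 on the plus strand, Insr (ENSMUSG00000005534) at chr8:3122061-3279617 on the minus strand and Igf1r (ENSMUSG00000005533) at chr7:67952827-68233668 on the plus strand. Ghr (ENSMUSG00000055737) lies at chr15:3317760-3583492 on the minus strand, Mc3r (ENSMUSG00000038537) at chr2:172248492-172251114 on the plus strand, Mc4r (ENSMUSG00000047259) on chromosome 18 on the minus strand and Glp1r (ENSMUSG00000024027) at chr17:30901817-30940791 on the plus strand. These positions rest on that annotation, because no source used here names the build used for counting. Insr is overlapped by the antisense gene Gm16180 and Glp1r by the antisense gene AC165951.1. If counting ignored strand, which no source used here states, reads of these pairs cannot be told apart.

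The filters kept 8597 aged and 10437 young barcodes, of which 398 and 498 were called doublets and left out. With doublets included, the kept barcodes had medians of 5699 and 5567 UMIs, and 25 barcode sequences occurred in both libraries. Without doublets 8199 aged and 9939 young nuclei remained. Classes were rebuilt by clustering without the 7 receptor genes and named from marker lists, so each name stands for nuclei that resemble that type. A cluster of 519 aged and 92 young barcodes, led by Oxt and ribosomal genes at medians of 683 and 708 UMIs, stayed unnamed and entered no class. A pair of clusters scored highest for oligodendrocyte markers and are called the Opalin and the Anln cluster by their leading genes. The Anln cluster had 0 oligodendrocyte markers and 1 marker of committed precursors (Enpp6) among its 10 leading genes, so it is described as a cluster and not as a cell type. Neurons numbered 4975 aged and 6414 young, with medians of 8342 and 7758.5 UMIs. They fell into 24 sub-clusters, called here by their leading genes, of which 22 had at least 50 nuclei in each library. Preoptic-, paraventricular and supraoptic-, and suprachiasmatic-like sub-clusters were all found. Others did not resemble hypothalamic types, among them a thalamic-type-like sub-cluster (Synpo2 Plekhg1) and a Drd2 striatal-type-like one (Adora2a Drd2).

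Levels are CPM, a gene's share of all UMIs of the class scaled to the usual common total. The receptors fell into a pair of sets in neurons, and their order by level changed when levels were divided by gene span. Whether counting took intronic reads into account is not stated, so the span need not be the length that was counted. Per kilobase of gene span, the neuron level was 1.38 CPM aged and 1.28 young for Mc4r, 0.667 and 0.627 for Insr, 0.597 and 0.586 for Ghr and 0.493 and 0.504 for Igf1r. It was 0.454 and 0.281 for Mc3r, 0.0555 and 0.0645 for Glp1r and 0.0409 and 0.0244 for Lepr, the same order of genes in both libraries. Insr, Igf1r and Ghr, each spread over more than 150 kilobases, were seen in many nuclei, while Lepr, Mc3r, Mc4r and Glp1r were each seen in a few percent of neurons. The plot of levels by cell class shows where each was found.

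**Figure D1:**
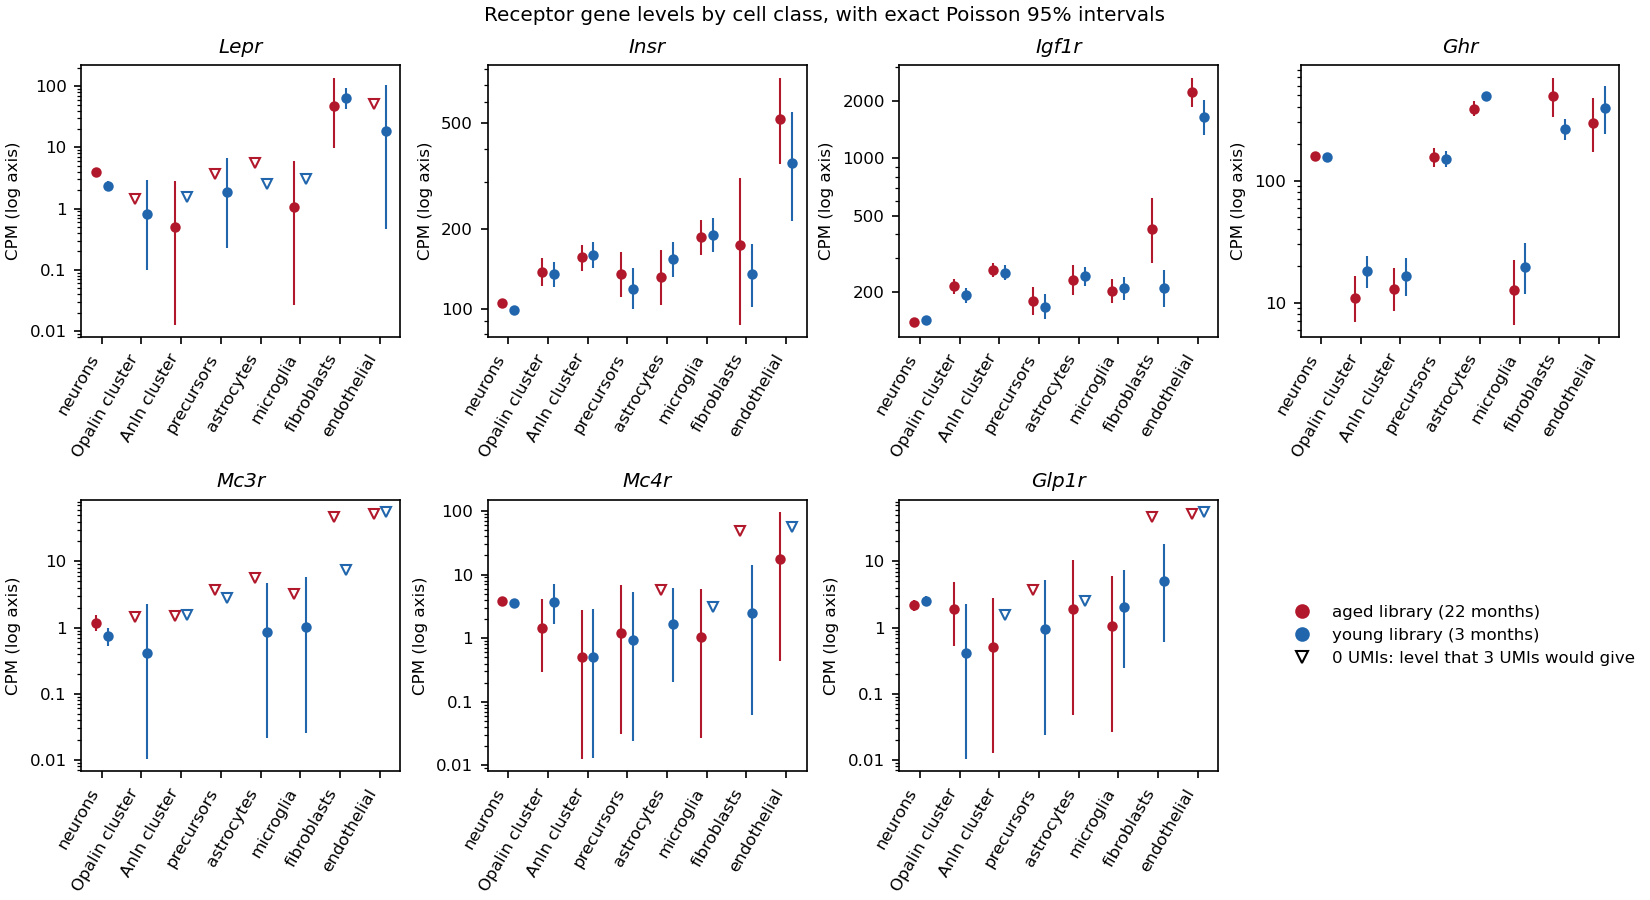
Level of each receptor gene (CPM, log axis) in neurons, the Opalin and Anln clusters, precursors, astrocytes, microglia, fibroblasts and endothelial cells, aged library in red and young in blue, with exact Poisson 95% intervals and open triangles at the level of 3 UMIs where 0 were counted. Lepr is highest in fibroblasts, Igf1r in endothelial cells (2223 and 1643 CPM), and Ghr is 7.98- to 14.4-fold lower in the Opalin and Anln clusters and microglia than in neurons.

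Over all neurons, Lepr (1.67-fold) and Mc3r (1.62-fold) were higher in the aged library, and the ratios of the other 5 receptors ran from 0.860 to 1.08. Of the 7 receptors, 2 were higher past 1.5-fold, where 3.02% of the 18011 features with at least 50 neuron UMIs were, and 0 were lower past it, where 6.37% were. The interval of the ratio lay above 1 for 3 of 7 (Lepr, Insr and Mc3r), against 26.6% of features, and below 1 for 0 of 7, against 23.2%. Lepr and Mc3r rest on few UMIs, and a fold past 1.5 is reached more easily by genes of low count.

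**Figure D2:**
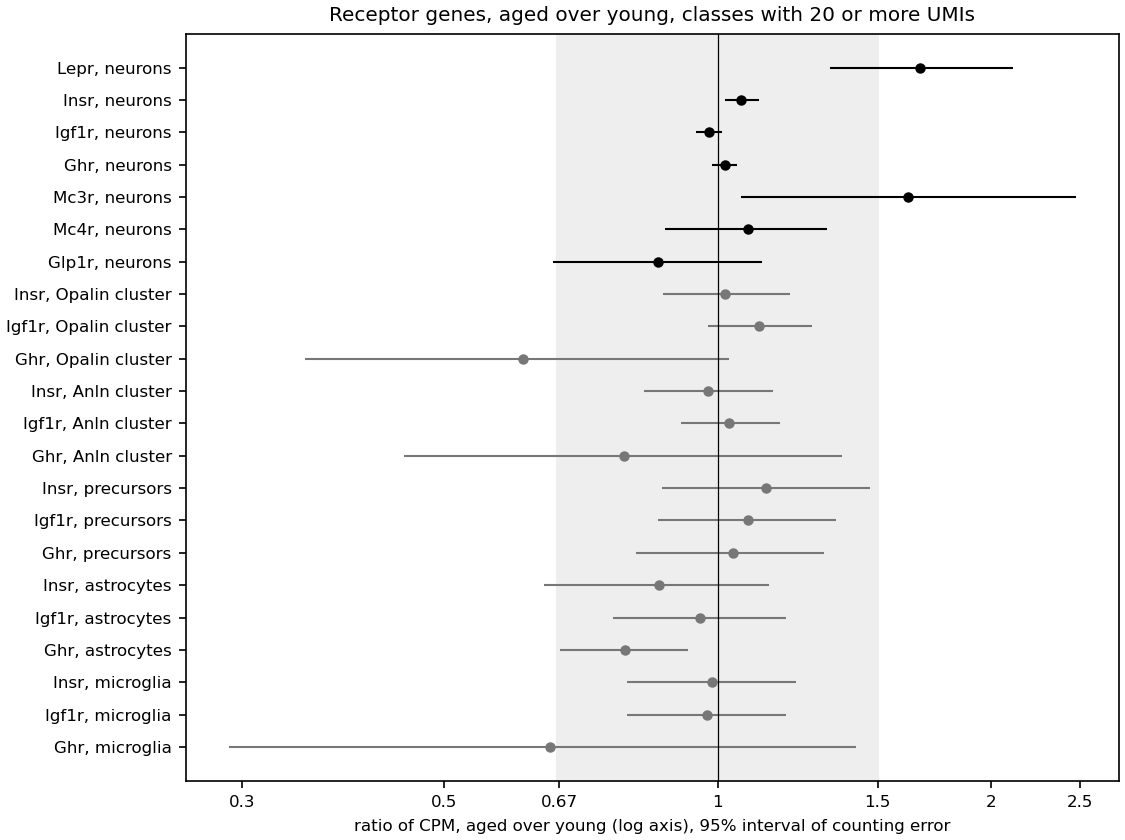
Ratio of CPM, aged over young (log axis), for each receptor gene in neurons (black) and glial classes (grey) with 20 or more UMIs over both libraries; bars are 95% intervals of counting error and the shaded band spans 1.5-fold in either direction. Lepr (1.67) and Mc3r (1.62) in neurons lie beyond the band on the high side, and Ghr in astrocytes (0.791) has its interval below 1.

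Lepr is the receptor through which leptin reduces feeding and raises heat production. It had the lowest neuron level of the receptors per kilobase of gene span, yet it showed a clear pattern of cell classes. Neurons held 185 Lepr UMIs in 138 aged nuclei and 133 in 112 young nuclei, or 4.00 CPM (3.45 to 4.62) and 2.39 CPM (2.0 to 2.83). The aged level was 1.67-fold higher (1.33 to 2.11), and the intervals of the levels did not overlap. Lepr was seen in 2.77% of aged and 1.75% of young neurons. With nuclei thinned to 4000 UMIs the shares were 1.25% and 0.858%, the aged share again higher. In the Opalin cluster (medians of 1773 and 1716 UMIs), oligodendrocyte-like nuclei that should lack the gene, a Lepr UMI was seen in 0 of 1102 aged nuclei and in 0.153% of young nuclei. The 0 allows up to 0.272% of nuclei with a UMI at this shallow depth, by a floor of 3 counts, and sets no limit on nuclei that express the gene. At 1000 UMIs per nucleus the neuron shares were 0.313% and 0.209%, and that of the young Opalin cluster was 0.0507%.

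Fibroblasts, the cells of the meninges and vessel sheaths, had the highest Lepr level of any class. A cluster led by Slc6a13 held 26 Lepr UMIs in 20 of 63 young nuclei (161 CPM, 105 to 236), and 3 UMIs in 3 of 16 aged nuclei (47.6 CPM, 9.81 to 139). Another fibroblast cluster, led by Bnc2, had 0 UMIs in its 33 young nuclei and no aged nuclei. Over all fibroblasts Lepr was 27.1-fold (17.1 to 41.5) above neurons in the young and 11.9-fold (2.43 to 35.3) in the aged library. Astrocytes held 0 Lepr UMIs in both libraries, and the other glial classes 0 to 2 each, so a difference with age was not detectable there.

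In what follows a sub-cluster counts as above or below the other neurons of its library only where the 95% interval of its ratio to them excludes 1. By this criterion Lepr was above in both libraries in 1 of 22 sub-clusters, the thalamic-type-like Synpo2 Plekhg1 nuclei. There it reached 33 UMIs in 19 of 130 aged nuclei (15.3 CPM, 10.5 to 21.5) and 15 UMIs in 8 of 117 young nuclei (9.57 CPM, 5.36 to 15.8). It was 4.44-fold (2.95 to 6.51) and 4.39-fold (2.38 to 7.53) above other neurons. The glutamatergic C1ql1 Onecut1 sub-cluster had like levels, 10.5 CPM aged (6 UMIs) and 13 CPM young (13 UMIs), which were 2.69-fold (0.974 to 5.97) and 5.92-fold (3.06 to 10.5) those of other neurons, so that it met the criterion in the young library alone. The Drd2 striatal-type-like neurons lay below other neurons in both libraries, at 1.48 and 0.700 CPM.

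The Gal Tac2 sub-cluster, which resembled preoptic neurons and was led by Gal, Tac2 and Esr1, held 30 Lepr UMIs in 15 of 286 aged nuclei (10.3 CPM) and 12 in 12 of 351 young nuclei (3.71 CPM). The ratio was 2.78 (1.38 to 5.96), but 11 of the 30 aged UMIs came from 1 nucleus. Without the nucleus with most Lepr UMIs in each library the ratio was 1.92 (0.870 to 4.47). Lepr was higher in the aged library in 16 of 22 sub-clusters and lower in 6. The share of all features higher in as many sub-clusters was not counted. Of the 4 sub-clusters with at least 20 Lepr UMIs, 1 had an interval that excluded 1. Among neurons outside the Gal Tac2 sub-cluster the ratio was 1.55 (1.21 to 1.98), and outside the Synpo2 Plekhg1 sub-cluster it was 1.58 (1.23 to 2.03). In the suprachiasmatic-like Vip Prr5l neurons 6 aged UMIs in 2 nuclei, 4 of them in 1 nucleus, faced 0 young UMIs, at least 2.48-fold higher against a floor of 3 UMIs. Mc4r had the opposite case in the same sub-cluster, with 0 aged UMIs and 6 young UMIs in 2 nuclei, 4 of them in 1 nucleus (at least 1.61-fold lower in the aged library). Both cases were chosen after their values were seen and rest on 2 nuclei each.

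**Figure D3:**
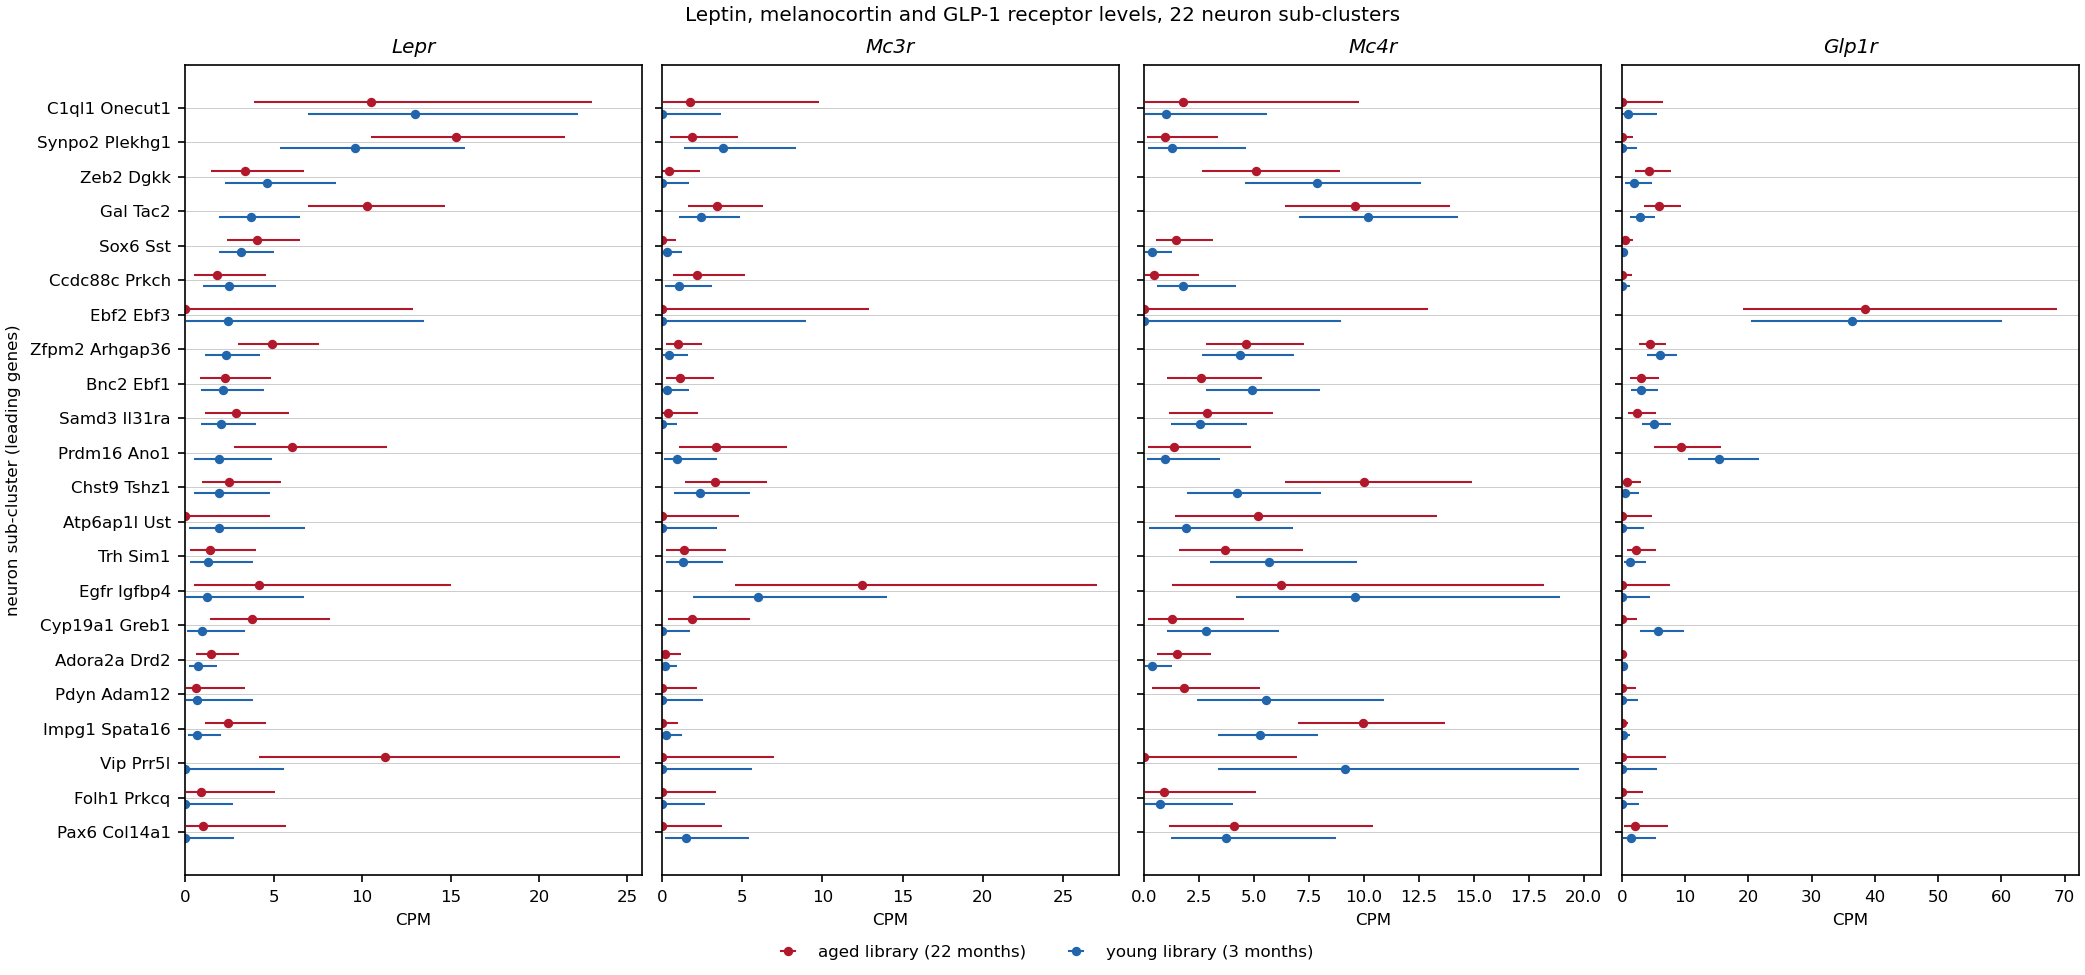
Levels of Lepr, Mc3r, Mc4r and Glp1r (CPM, linear axes that differ between panels) in 22 neuron sub-clusters ordered by the young Lepr level, aged in red and young in blue, with exact Poisson 95% intervals. Glp1r stands out in the Ebf2 Ebf3 sub-cluster (38.4 and 36.4 CPM) and Lepr in C1ql1 Onecut1 and Synpo2 Plekhg1.

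Insr, the receptor tyrosine kinase for insulin, had the narrowest range of Insr, Igf1r and Ghr over neuron sub-clusters. It was counted at 105 CPM (102 to 108) in aged and 99.1 CPM (96.5 to 102) in young neurons, from 4869 and 5513 UMIs. The ratio of 1.06 (1.02 to 1.11) is a small difference in levels whose intervals met at 102 CPM. Over the 22 sub-clusters Insr ran from 87.2 to 164 CPM in the aged and from 84.4 to 131 CPM in the young library. In 0 of the 22 sub-clusters did the interval of the ratio to other neurons exclude 1 on the same side in both libraries. The highest level was in the small Ebf2 Ebf3 sub-cluster, with 47 aged and 54 young UMIs, 1.56-fold (1.15 to 2.08) and 1.33-fold (0.995 to 1.73) that of other neurons. Insr was seen in 56.7% of aged and 52.2% of young neurons, and in 33.5% and 32.1% after thinning to 4000 UMIs.

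Outside neurons Insr was higher in all 5 glial classes than in neurons, by 1.21- to 1.91-fold, though the interval for aged astrocytes included no difference (1.26, 0.979 to 1.59). Microglia, the brain's resident immune cells, had 186 CPM (159.7 to 216) aged and 189 CPM (163 to 219) young, and the Opalin cluster had 138 and 135 CPM and the Anln cluster 156 and 159.6 CPM. Endothelial cells, which line the vessels, had the highest level, 521 CPM (351 to 744) from 30 UMIs in 22 aged nuclei and 355 CPM (214 to 554) from 19 UMIs in 24 young nuclei. For all 5 glial classes the interval of the aged to young ratio of Insr included 1, the ratios running from 0.862 in astrocytes to 1.13 in oligodendrocyte precursors.

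Igf1r, which binds IGF1 and IGF2 and is a close relative of Insr, was by far highest in endothelial cells and, among neurons, in the thalamic-type-like sub-cluster. The 22 aged endothelial nuclei held 128 UMIs (2223 CPM, 1854 to 2643) and the 24 young ones 88 (1643 CPM, 1318 to 2024). These levels were 16.0-fold (13.4 to 19.1) and 11.6-fold (9.30 to 14.3) above neurons. The endothelial markers Cldn5 and Flt1 were at 1736 and 2917 CPM there in the aged and at 1811 and 2782 CPM in the young library. Pecam1, another endothelial marker, differed more, at 382 CPM aged and 1382 CPM young. The fibroblast marker Slc6a13 was at 0 in both. Neuron markers were also counted in these nuclei, Syt1 at 868 and 1083 CPM and Snap25 at 260.5 and 187 CPM. The Anln cluster (261 and 252 CPM) and astrocytes (231 and 241 CPM) also lay above neurons (139 and 142 CPM). The ratio of Igf1r with age had an interval that included 1 in all 5 glial classes.

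Synpo2 Plekhg1 neurons carried 803 Igf1r UMIs aged (373 CPM, 348 to 399.6) and 470 young (300.0 CPM, 273 to 328), a ratio of 1.24 (1.11 to 1.40). A single aged nucleus held 64 of these UMIs, and without the highest nucleus of each library the ratio was 1.21 (1.07 to 1.36). Vip Prr5l neurons, like those of the suprachiasmatic clock, came next at 199.9 and 226 CPM. These 2 sub-clusters were above and 4 others (Adora2a Drd2, Bnc2 Ebf1, Cyp19a1 Greb1 and Samd3 Il31ra) below the other neurons in both libraries by the interval criterion.

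The neuron total of Igf1r differed from the pattern over sub-clusters. Over all neurons the ratio was 0.979 (0.947 to 1.01), but 19 of 22 sub-clusters were lower in the aged library. The sub-clusters share 1 library per age, and the share of all features lower in as many sub-clusters was not counted. The interval lay below 1 in Prdm16 Ano1 (0.747, 0.618 to 0.901), Folh1 Prkcq (0.767, 0.612 to 0.958) and Zfpm2 Arhgap36 (0.819, 0.730 to 0.919), and above 1 only in Synpo2 Plekhg1. The Synpo2 Plekhg1 neurons held 4.66% of aged and 2.82% of young neuron UMIs. Without them the ratio in neurons was 0.928 (0.896 to 0.961), and with trimmed-mean (TMM) scaling of all neurons it was 0.965 (0.933 to 0.997).

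Ghr, the cytokine-type receptor for growth hormone, separated the glial classes most sharply and had the widest range of the 3 as a fold of the highest over the lowest of the 22 neuron sub-clusters. That fold was 4.86 aged and 4.87 young for Ghr, 3.81 and 2.83 for Igf1r and 1.88 and 1.55 for Insr, while in CPM the aged range of Igf1r (275) was wider than that of Ghr (218). Astrocytes held 205 aged UMIs (388 CPM, 337 to 445) and 581 young UMIs (491 CPM, 451 to 532), above the 159 and 156 CPM of neurons. Precursors of oligodendrocytes were near the neuron level, at 156 and 151 CPM. The Opalin and Anln clusters had 11 and 13 CPM aged and 18.0 and 16.5 CPM young, and microglia 12.8 and 19.5 CPM. Those values are below the 20.1 and 20.9 CPM in barcodes of more than 100 and up to 400 UMIs, which hold free RNA. Neurons stood above the Opalin cluster by 14.4-fold (9.61 to 22.8) in the aged and 8.66-fold (6.44 to 11.9) in the young library.

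In astrocytes Ghr was lower in the aged library, with a ratio of 0.791 (0.671 to 0.929) and levels whose intervals did not overlap. Of the 15 ratios of Insr, Igf1r and Ghr in the 5 glial classes, those with at least 20 UMIs, it was the one whose interval excluded 1. Over all features with at least 50 UMIs, the interval lay below 1 for 6.11% in the Opalin and 6.40% in the Anln cluster, 7.92% in precursors, 5.56% in astrocytes and 8.02% in microglia. It lay above 1 for 16.6%, 13.6%, 9.07%, 7.72% and 9.96%. The share of astrocytes with a Ghr UMI was 63.4% aged and 65.1% young at medians of 3417 and 2858 UMIs, and 30.2% and 34.7% after thinning to 1000 UMIs. Microglia, which should hold little of it, had 1.66% and 1.60%. Astrocytes numbered 153 aged and 387 young.

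Among neurons Ghr was highest in the Trh Sim1 sub-cluster, whose leading genes include Trh, Sim1, Avp and Oxt. It resembled the neurosecretory neurons of the paraventricular and supraoptic nuclei. Barcodes with free RNA held 746 and 638 CPM of Avp and 571 and 995 CPM of Oxt, above the levels over all neurons. Trh Sim1 neurons had 603 aged Ghr UMIs (275 CPM, 254 to 298) and 754 young ones (328 CPM, 305 to 352). Of the 22 sub-clusters, the lowest were Vip Prr5l (56.6 and 68.4 CPM) and, in the young library, Pax6 Col14a1 neurons (94.7 and 67.3 CPM). The other two sub-clusters, with fewer than 50 aged nuclei, were lower in the young library. Slc5a7 Chat neurons had 9 UMIs in 5 of 50 young nuclei (11.4 CPM, 5.22 to 21.7), 5 of them in 1 nucleus. In the aged library they had 38 UMIs in 7 of 31 nuclei (66.8 CPM, 47.3 to 91.8), 25 of them in 1 nucleus. Slc17a7 Pdzrn3 neurons, with 1 aged nucleus, had 55.8 CPM in the young library. By the interval criterion 7 of the 22 were above the other neurons in both libraries, namely Trh Sim1, Zeb2 Dgkk, Pdyn Adam12, Cyp19a1 Greb1, Zfpm2 Arhgap36, Ccdc88c Prkch and Samd3 Il31ra. Another 7 were below in both: Adora2a Drd2, Atp6ap1l Ust, Chst9 Tshz1, Folh1 Prkcq, Pax6 Col14a1, Sox6 Sst and Vip Prr5l. Across sub-clusters the 2 libraries' Ghr levels gave Pearson's r of 0.83 on the log scale and Spearman's rho of 0.73 (n = 22 sub-clusters, which share their library, depth and clustering).

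**Figure D4:**
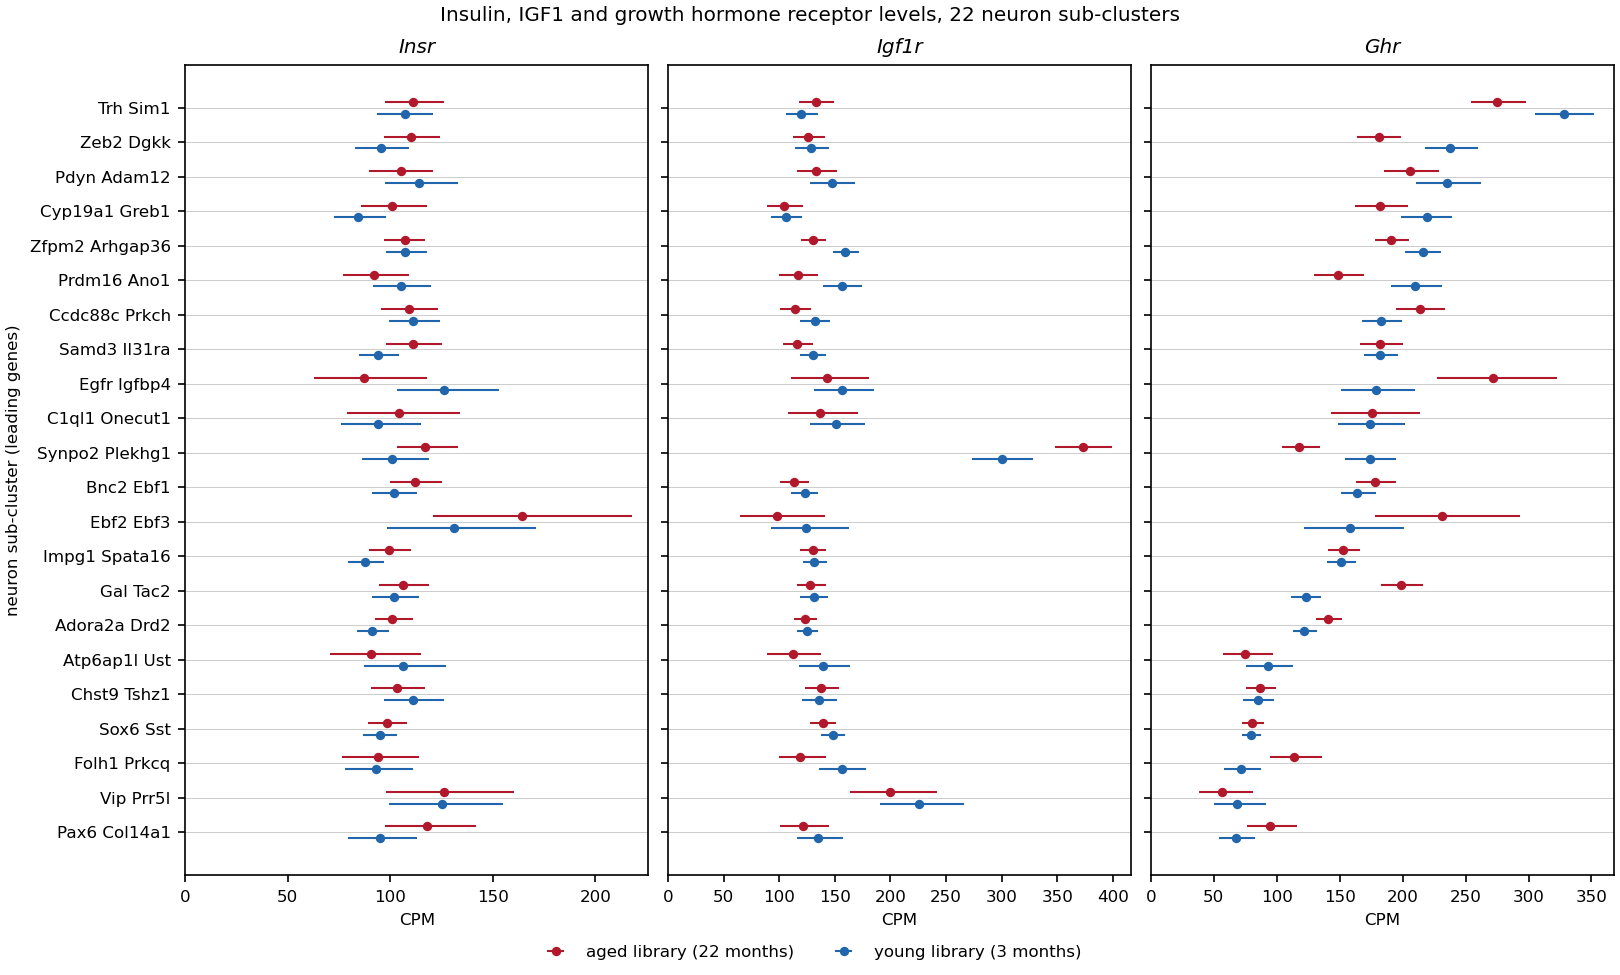
Levels of Insr, Igf1r and Ghr (CPM, linear axes that differ between panels) in 22 neuron sub-clusters ordered by the young Ghr level, aged in red and young in blue, with exact Poisson 95% intervals. Insr lies between 84.4 and 164 CPM throughout, Igf1r is set apart in Synpo2 Plekhg1, and Ghr runs from 56.6 to 328 CPM.

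Ghr in neurons as a whole did not differ between the libraries beyond counting error (1.02, 0.987 to 1.05), while the ratios of sub-clusters lay on both sides of 1. The interval lay above 1 in 7 and below 1 in 6 of 22 sub-clusters. Over all 255985 pairs of a feature and a sub-cluster with at least 20 UMIs, it lay above 1 in 8.53% and below 1 in 8.47%. Of the 5764 features with at least 20 UMIs in all 22 sub-clusters, 22.8% had intervals on both sides of 1 and 7.58% had as many as 13 that excluded 1, with a median of 3. Features of few UMIs have wide intervals, so these shares depend on the UMI count. The ratio was highest in the preoptic-type-like Gal Tac2 neurons, with 579 aged UMIs (199 CPM, 183 to 216) and 397 young (123 CPM, 111 to 135), a ratio of 1.62 (1.42 to 1.85). One aged Gal Tac2 nucleus held 61 of them, and without the highest nucleus of each library the ratio was 1.5 (1.31 to 1.71). Against the other neurons of its library, Gal Tac2 was above in the aged (1.27, 1.17 to 1.39) and below in the young (0.776, 0.700 to 0.859), and it was the one sub-cluster whose interval excluded 1 on opposite sides. Levels of Synpo2 Plekhg1 (118 and 174 CPM) and Prdm16 Ano1 neurons (149 and 210.0 CPM) also lay below other neurons in the aged and above them in the young library, each with an interval that excluded 1 in one library alone. Ghr was also higher in the aged library in Folh1 Prkcq (1.58, 1.21 to 2.08) and Egfr Igfbp4 neurons (1.52, 1.19 to 1.93).

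The sub-clusters with a lower aged Ghr level included the one with the highest level of all. Trh Sim1 neurons had a ratio of 0.839 (0.753 to 0.935), Zeb2 Dgkk 0.761 (0.667 to 0.867), Prdm16 Ano1 0.708 (0.60 to 0.834) and Synpo2 Plekhg1 0.682 (0.573 to 0.812). These intervals treat each UMI as independent and leave out the spread of Ghr between nuclei. After thinning to 4000 UMIs, a Ghr UMI was seen in 46.1% of aged and 45.7% of young Trh Sim1 nuclei, not fewer. The thinned shares were 35.3% and 40.2% in Zeb2 Dgkk, 34.5% and 39.7% in Prdm16 Ano1 and 32.6% and 40.3% in Synpo2 Plekhg1. In Synpo2 Plekhg1 neurons Ghr was thus lower (118 and 174 CPM) where Igf1r was higher in the aged library. The small sub-clusters Pax6 Col14a1 (1.41) and Ebf2 Ebf3 (1.46) had intervals above 1 that included 1 without the highest nucleus of each library (0.996 to 1.87 and 0.962 to 2.09). Over all receptors, 22 of 82 sub-cluster ratios with at least 20 UMIs had an interval that excluded 1, with 12 above and 10 below it, and 13 of the 22 were for Ghr.

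**Figure D5:**
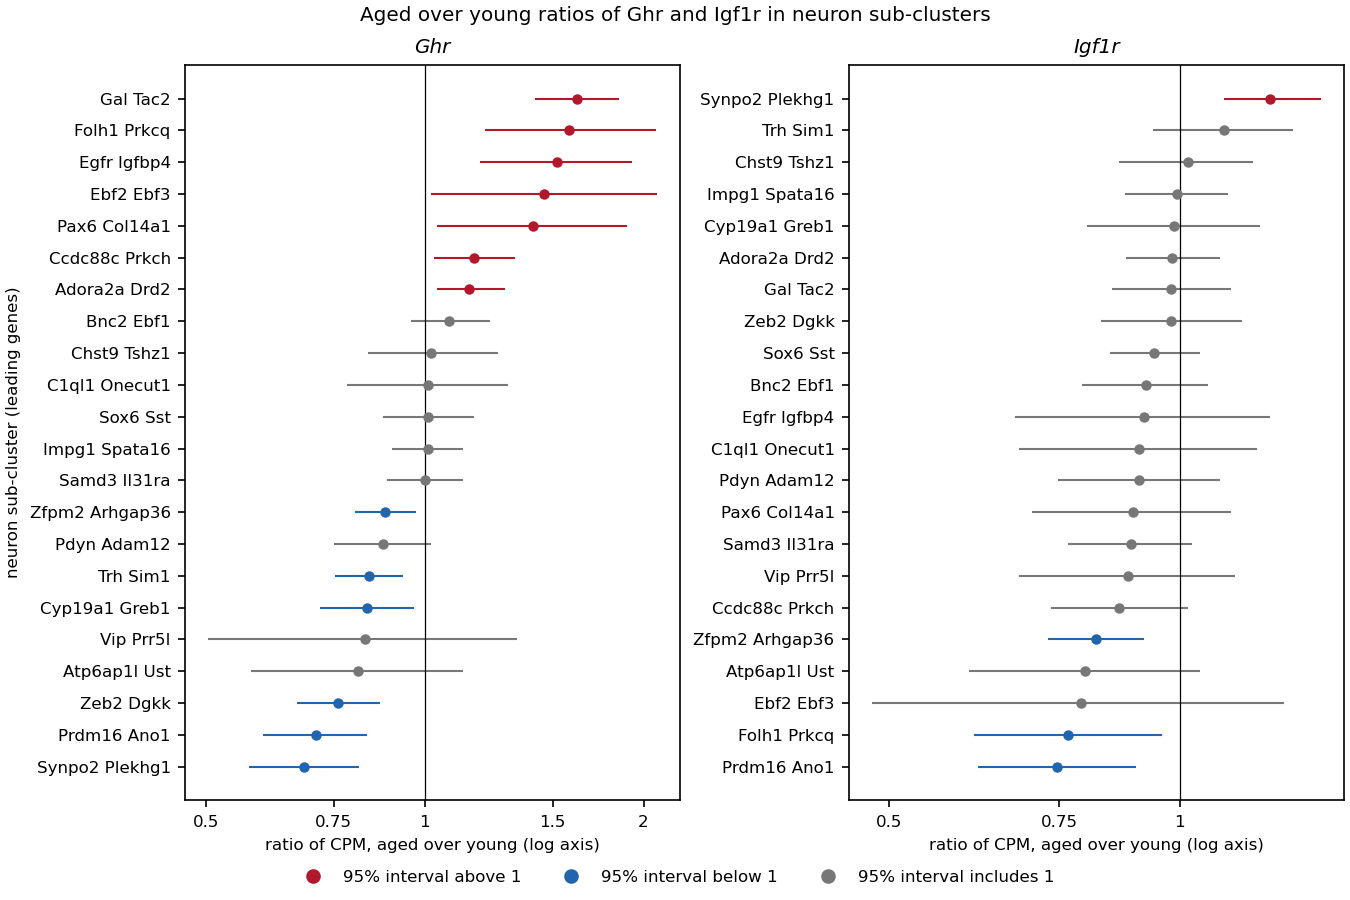
Ratios of CPM, aged over young (log axis), of Ghr (left) and Igf1r (right) in 22 neuron sub-clusters, with 95% intervals of counting error; red intervals lie above 1, blue below 1 and grey include 1. Ghr has 7 red and 6 blue sub-clusters, while 19 of 22 Igf1r ratios lie below 1, 3 of them with a blue interval.

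Ghr UMIs were concentrated in few neurons compared with those of Insr. Nuclei with at least 10 Ghr UMIs were 90 aged (1.81%) and 114 young (1.78%) and held 18.0% and 19.4% of neuron Ghr UMIs. For Igf1r such nuclei held 7.87% and 3.03% of its UMIs, and for Insr 0.431% and 0.200%.

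Mc3r, a melanocortin receptor found in energy-sensing hypothalamic neurons, was the rarest by UMIs: 55 UMIs in 52 aged and 41 in 41 young neurons, or 1.19 CPM (0.897 to 1.55) and 0.737 CPM (0.529 to 1.00). The ratio was 1.62 (1.06 to 2.48), the shares of neurons 1.05% and 0.639%, and the thinned shares (4000 UMIs) 0.479% and 0.287%. With at most 1% mitochondrial UMIs the interval included 1 (1.54, 0.976 to 2.46). The low-UMI barcodes with free RNA had 1.52 CPM aged and 2.43 CPM young of Mc3r, above the neuron level in both libraries and lower in the aged one. The mean of such barcodes would add 2.45 of the 55 aged and 3.69 of the 41 young neuron UMIs. The Opalin and Anln clusters held 0 aged and 1 young UMI in all, the latter in 0.0765% of young Opalin nuclei, but at this depth neurons could not be told from any glial class. Mc3r was above other neurons in both libraries in 3 sub-clusters by the interval criterion. Egfr Igfbp4 neurons had 6 UMIs in 62 aged nuclei (12.5 CPM) and 5 in 92 young nuclei (6.01 CPM), Gal Tac2 neurons 10 and 8 UMIs (3.43 and 2.47 CPM), and Chst9 Tshz1 neurons 8 and 5 UMIs (3.33 and 2.35 CPM).

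Mc4r, the receptor whose loss causes obesity in mice and people, did not differ between the libraries in neurons as a whole beyond counting error. There were 178 UMIs in 147 aged neurons (3.85 CPM, 3.31 to 4.46) and 199 in 170 young neurons (3.58 CPM, 3.1 to 4.11), a ratio of 1.08 (0.875 to 1.32). It was seen in 2.95% and 2.65% of neurons. In the Opalin cluster, at medians of 1773 and 1716 UMIs against 8342 and 7758.5 in neurons, it was seen in 3 aged (0.272%) and 9 young nuclei (0.688%), and the young level of 3.68 CPM (1.68 to 6.99) was not distinguishable from that of neurons. The low-UMI barcodes with free RNA had 7.22 and 8.78 CPM of Mc4r, above the neuron level. The mean of such barcodes would add 11.7 of the 178 aged and 13.3 of the 199 young neuron UMIs.

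Some neuron types held far more Mc4r than the free RNA would give. Gal Tac2 neurons held 28 Mc4r UMIs in 21 of 286 aged nuclei (9.61 CPM) and 33 in 27 of 351 young nuclei (10.2 CPM), 2.77-fold (1.78 to 4.17) and 3.22-fold (2.14 to 4.70) above other neurons. Free RNA would give 0.671 and 0.729 UMIs there. Adora2a Drd2 neurons held 7 and 2 UMIs in 507 and 624 nuclei (1.48 and 0.350 CPM) and lay below other neurons in both libraries by the interval criterion, as did Sox6 Sst interneuron-like cells. Mc4r was higher in the aged library in Impg1 Spata16 neurons, whose leading genes include Drd1, with 37 and 23 UMIs (9.94 and 5.27 CPM; ratio 1.89, 1.09 to 3.32). In Chst9 Tshz1 neurons 24 aged and 9 young UMIs (9.99 and 4.22 CPM) gave 2.37 (1.06 to 5.79), an interval that included 1 without the highest nucleus of each library (2.33, 0.993 to 6.09).

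Glp1r, the receptor for the gut and brain peptide GLP-1, had at least 50% of its neuron UMIs in 4 sub-clusters aged and 3 young. The numbers were similar for Lepr (4 and 5), Mc3r (4 and 4) and Mc4r (3 and 5). Neurons held 100 UMIs in 70 aged nuclei (2.16 CPM, 1.76 to 2.63) and 140 in 107 young nuclei (2.52 CPM, 2.12 to 2.97), a ratio of 0.860 (0.659 to 1.12). The glial classes held 0 to 4 UMIs each, and the aged Opalin cluster, with 4, was at 1.91 CPM, not distinguishable from neurons. The barcodes with free RNA had 4.13 and 5.85 CPM of Glp1r, above the neuron level. In Ebf2 Ebf3 neurons, a small glutamatergic sub-cluster, 11 UMIs in 5 of 53 aged nuclei (38.4 CPM, 19.2 to 68.8) and 15 UMIs in 7 of 81 young nuclei (36.4 CPM, 20.4 to 60.1) were 19.8-fold (9.56 to 37.2) and 16.1-fold (8.75 to 27.6) above other neurons.

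Prdm16 Ano1 neurons, whose leading genes include Gnrh1, came second for Glp1r, with 14 aged UMIs (9.38 CPM, 5.13 to 15.7) and 32 young (15.3 CPM, 10.4 to 21.6). Gnrh1 itself was at 27.0 and 70.7 CPM in barcodes with free RNA, against 2.12 and 7.80 CPM over all neurons. Zfpm2 Arhgap36 neurons, at 4.41 and 5.98 CPM, were the third sub-cluster above the rest in both libraries by the interval criterion, and 5 sub-clusters were below in both. Gal Tac2 neurons, at 5.83 and 2.78 CPM, met it in the aged library alone (3.04, 1.69 to 5.17, against 1.11, 0.497 to 2.18). None of the 5 sub-clusters with at least 20 Glp1r UMIs had an age ratio whose interval excluded 1, the ratios running from 0.481 in Samd3 Il31ra (6 and 20 UMIs) to 2.10 in Gal Tac2 neurons (17 and 9 UMIs; 0.885 to 5.34). In Cyp19a1 Greb1 neurons, led by the aromatase gene Cyp19a1, 12 young nuclei of 222 held 1 UMI each (5.63 CPM) and 0 of 163 aged nuclei any. That is at least 3.00-fold lower in the aged library against a floor of 3 UMIs, a case chosen after its values were seen.

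Most neurons showed 1 to 3 of the receptors. Of aged neurons 10.5% had a UMI of 0 of the 7 receptors, 29.7% of 1, 35.7% of 2, 21.7% of 3 and 2.23% of 4. Of young neurons the shares were 13.3%, 31.1%, 35.4%, 18.8% and 1.36%. Aged neurons had a median of 8342 UMIs and young ones 7758.5, so these counts of receptors were not compared at equal depth. Aged neurons with a Lepr UMI also had an Igf1r UMI in 74.6% and an Insr UMI in 68.8% of cases, against 59.4% and 56.3% of the rest. Those Lepr neurons were also deeper (median 11637 UMIs against 8275), so these shares are not compared at equal depth. Lepr and Mc4r were seen together in 4 aged and 2 young neurons, and Lepr and Glp1r in 1 and 3.

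Genes most alike to each receptor were sought over 27 classes and sub-clusters among 16637 genes, by Pearson's r of log2(CPM + 5), averaged over the libraries. The units share depth and library, so these values are descriptions. Insr was most like Abca1 (0.84), Tbccd1 (0.84) and Bmp2k (0.82), Igf1r most like Ctnnd1 (0.84), Plekhg1 (0.81) and Rgs3 (0.78), and Ghr most like Ctnnd2, Fmn2 and Ppp2r2b (0.88 each). Lepr was most like Gm48748 (0.75), Vwa5b1 (0.71) and Kcnj5 (0.68), and Glp1r most like Pgm5 (0.81), Gm13986 (0.79) and 4930438E09Rik (0.75). Pgm5 and 4930438E09Rik are leading genes of the Ebf2 Ebf3 sub-cluster, where Glp1r was highest. Plekhg1 is one of the Synpo2 Plekhg1 sub-cluster, where Igf1r was highest among neurons. Such values can thus rest largely on 1 sub-cluster. For Mc4r the values were lower, 0.61 for Gm34821, 0.58 for Gm45740 and 0.55 for Habp4, and Mc3r had too few UMIs.

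The genes around the receptors were described from 6 lists, over genes with at least 50 neuron UMIs. Their ratios were taken over all neurons, whose makeup by sub-cluster differed between the libraries. Slc17a7 Pdzrn3, for instance, had 1 aged and 79 young nuclei. Ratios of list genes by neuron sub-cluster are not given here. Over all such features 53.0% were higher in the aged library and the median log2 ratio (with 5 CPM added) was 0.01. Of hormone genes 3 were counted, 1 higher and 2 lower (median -0.05). Agrp, which codes for the peptide that blocks melanocortin receptors, was at 39.6 and 52.3 CPM in neurons (ratio 0.757, 0.714 to 0.803). It was also counted in astrocytes, at 18.9 and 44.7 CPM, where it was lower in the aged library too (0.423, 0.192 to 0.840). By the GENCODE M21 annotation the span of Agrp overlaps Gm5914 on the same strand and Ripor1, Ctcf and Gm38250 on the other, and lies 651 bases from Atp6v0d1 on the same strand. Reads of those genes could be counted as Agrp, which was not tested, so the Agrp values are uncertain. Barcodes with free RNA had 10.4 and 6.35 CPM of it. Pomc was at 4.20 and 3.56 CPM (1.18, 0.963 to 1.45) and Igf1 at 7.81 and 8.27 CPM (0.945, 0.821 to 1.09).

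Of 12 IGF-binding and -releasing genes 3 were higher and 9 lower (median -0.08). The proteases that free IGF from its binding proteins, Pappa (10.4 and 15.2 CPM; 0.684, 0.611 to 0.766) and Pappa2 (3.14 and 4.57 CPM; 0.687, 0.557 to 0.846), were lower, as was Stc1 (0.704, 0.563 to 0.877), a stanniocalcin. Igfbp4, a binding protein, was higher (5.73 and 4.44 CPM; 1.29, 1.08 to 1.54).

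Of 34 insulin and IGF signalling genes 19 were higher and 15 lower (median 0.02), and 1 passed 1.5-fold. That gene was Ide, the insulin-degrading enzyme, with 84.4 CPM aged and 39.0 CPM young (2.16, 2.05 to 2.28). Pik3r2, a regulatory subunit of phosphoinositide 3-kinase (1.29, 1.14 to 1.47), was higher. Ptpn1, a phosphatase that damps insulin and leptin signalling, was lower (64.6 and 76.0 CPM; 0.850, 0.811 to 0.891). Of 14 JAK-STAT genes 3 were higher and 11 lower (median -0.03). Stat5a had few UMIs, 62 and 48 (1.56, 1.05 to 2.32), and the phosphatases Ptpn2 (0.917, 0.868 to 0.969) and Ptpn11 (0.925, 0.882 to 0.970) were slightly lower.

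Of 24 melanocortin and GLP-1 signalling genes 10 were higher and 14 lower (median -0.07). Kcnj13, a potassium channel known as a target of Mc4r signalling, was at 6.60 CPM aged and 10.8 CPM young (0.613, 0.532 to 0.705). Arrb2, an arrestin (0.778, 0.715 to 0.848), and Crtc1, a partner of Creb1 (0.827, 0.787 to 0.869), were lower, and Prkacb, a catalytic subunit of protein kinase A, was higher (1.19, 1.15 to 1.23). Of 15 other metabolic hormone receptors and their partners 6 were higher and 9 lower (median -0.02). Glp2r, the receptor for GLP-2, had 1020 aged and 2431 young UMIs (22.1 and 43.7 CPM; 0.505, 0.469 to 0.544). Ramp2 (1.67, 1.38 to 2.01) and the calcitonin receptor Calcr, which pairs with Ramp proteins (1.33, 1.20 to 1.47), were higher, and Mc1r was at 18 and 43 UMIs (0.504, 0.274 to 0.892).

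In glia Ide was the one list gene past 1.5-fold, with an interval that excluded 1, in all 5 classes. Its ratios were 2.47 (1.81 to 3.41) and 2.07 (1.45 to 2.98) in the Opalin and Anln clusters, 2.22 (1.41 to 3.56) in precursors, 2.24 (1.42 to 3.54) in astrocytes and 2.27 (1.40 to 3.76) in microglia. In these classes 7.82%, 7.24%, 7.14%, 6.37% and 7.44% of features were higher past 1.5-fold, and 3.22%, 3.21%, 6.93%, 6.20% and 5.53% were lower. The makeup of these clusters differed between the libraries at a finer Leiden resolution of 2. Of the Opalin cluster, 56.8% of aged and 11.5% of young nuclei fell in a part with C4b among its leading genes, and 15% and 63.0% in a part led by Ptgds and Mal. In the Opalin cluster as a whole Pik3r3, another regulatory subunit of phosphoinositide 3-kinase (1.54, 1.20 to 1.99), the transcription factor gene Foxo1 (1.98, 1.39 to 2.84) and Pik3r2 (1.72, 1.07 to 2.78) were higher in the aged library. With the finer parts of at least 50 nuclei per library weighted alike the ratios were 1.41, 1.60 and 1.68, and that of Ide 2.22.

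The precursors included 2 aged and 22 young nuclei that the finer clustering set apart as committed precursors (markers Bcas1, Enpp6, Gpr17 and Itpr2). In the whole class Pik3r3 was at 67.0 CPM aged and 252 CPM young (0.266, 0.195 to 0.356) and Rictor, a subunit of the mTORC2 kinase complex, at 96.2 and 159 CPM (0.605, 0.457 to 0.795). Without those nuclei neither differed beyond counting error, with ratios of 0.971 (0.660 to 1.42) and 0.957 (0.695 to 1.32). Without them Pdpk1 (0.583, 0.386 to 0.869) and Agrp (0.487, 0.247 to 0.915) were lower and Prkaca (1.95, 1.17 to 3.34) and Ide (2.08, 1.31 to 3.37) higher, near their ratios in the whole class.

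In the Anln cluster Foxo3 (1.57), Ptpn1 (1.54), Stat3 (1.54), Adcy3 (1.89) and Gipr, the receptor for the gut hormone GIP (2.13, 1.25 to 3.76), were higher. With its finer parts, which held 57.9% and 39.3% of aged and 29.9% and 65.0% of young nuclei, weighted alike, the ratios were 1.68, 1.45, 1.54, 1.79 and 2.33. In astrocytes Irs1, an adaptor of Insr and Igf1r, was at 24.6 and 51.5 CPM (0.478, 0.241 to 0.879) and Ptpn11 at 71.9 and 40.5 CPM (1.77, 1.13 to 2.77). In microglia Gnal was higher (1.69, 1.02 to 2.83).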

How the data were processed

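Per the file headers, the deposited files hold UMI counts per gene and barcode, 1 matrix a library, written by Cell Ranger 4 without filtering of barcodes or normalization. The submitters' processing notes also name Cell Ranger. No source used here gives the build or annotation, or says whether counting took intronic reads or strand into account. The matrices held 79107368 aged and 87520038 young UMIs over all barcodes, and 57472005 and 69103229 over the barcodes that passed the filters.

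From these counts, barcodes with at least 500 genes and at most 5% mitochondrial UMIs were kept (86 aged and 80 young barcodes were removed for the latter). Doublets were called per library with Scrublet in scanpy 1.11.5 (4.63% and 4.77%) and left out. Both libraries were clustered together on 2000 variable genes without the 7 receptors, with 30 principal components, 15 neighbours and Leiden resolution 1, and neurons again alone. A cluster was named where at least 3 markers of a list were detected and its score on that list reached a minimum. A cluster of low depth with none of those markers among its 10 leading genes stayed unnamed. This held for the 519 aged and 92 young barcodes, in which 6 neuron markers were detected. Neuron sub-clusters were likened to a type where at least 3 of its markers were among their 10 leading genes and at least 3 stood well above the median sub-cluster. Oligodendrocytes were compared by cluster, since the Anln cluster had more committed precursor than oligodendrocyte markers among its 10 leading genes.

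For each class, the UMIs of a library were added up and scaled to CPM. Intervals were exact Poisson for levels, exact Clopper-Pearson for shares and exact conditional binomial for ratios, all at 95%, and the interval script was tested on simulated data. UMIs remove most amplification copies, and intervals and the floor of 3 counts cover counting error only. Genes named from lists were up to 4 per list with the interval bound farthest from 1 in neurons, and in glia those past 1.5-fold with an interval that excluded 1; a gene that this rule selects is not reported here. The 3 most alike genes were named per receptor. Free RNA was measured in barcodes of more than 100 and up to 400 UMIs. Alternatives changed the scaling (TMM factors of edgeR 4.0.16), the filters, the doublet calls, free RNA, sub-cluster weights and single nuclei. The receptors and lists were chosen with earlier results of these data known. No protein or promoter sequence was used.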

Additional observations from a re-analysis of the deposited data

Results flagged for a closer look

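The aged to young ratio differed in direction between neuron sub-clusters for 3 receptors, each with an interval above 1 in one sub-cluster and below 1 in another. The difference between sub-clusters was not tested, since each has 1 sample per age. For Ghr the highest ratio was 1.62 in Gal Tac2 neurons and the lowest 0.682 in Synpo2 Plekhg1 neurons. For Igf1r they were 1.24 in Synpo2 Plekhg1 and 0.747 in Prdm16 Ano1 neurons. For Insr they were 1.18 (1.01 to 1.38) in Samd3 Il31ra and 0.691 (0.471 to 0.997) in Egfr Igfbp4 neurons, with bounds close to 1. Without the highest nucleus of each library the Samd3 Il31ra interval included 1 (1.00 to 1.39). Of 22 sub-clusters, the interval lay above and below 1 in 7 and 6 for Ghr, 1 and 3 for Igf1r and 1 and 1 for Insr. Over all pairs of a feature and a sub-cluster with at least 20 UMIs, the shares were 8.53% and 8.47%.

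Receptor UMIs were also present in the 519 aged and 92 young unnamed barcodes, which entered no class. The aged ones held 15 UMIs of Insr, 20 of Igf1r, 12 of Ghr and 6 of Glp1r, above the 3 that a count of 0 allows. The young ones held 4 UMIs of Igf1r. The mean of barcodes with more than 100 and up to 400 UMIs would give 4.64 Insr, 6.65 Igf1r, 3.39 Ghr and 0.696 Glp1r UMIs in as many aged barcodes. Those barcodes had a mean of 325 UMIs, against a median of 683 in the unnamed aged ones, so depth differed. The unnamed aged barcodes had 38.4 CPM of Insr (21.5 to 63.3), 51.1 of Igf1r (31.2 to 79.0) and 30.7 of Ghr (15.9 to 53.6). Aged free RNA had 27.5, 39.4 and 20.1 CPM, each within the interval. Of the 6 Glp1r UMIs, 3 came from 1 barcode.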

How the results depend on the processing

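All 77 alternative values of the 7 neuron ratios kept within the main interval except one: without the Synpo2 Plekhg1 sub-cluster the Igf1r ratio was 0.928, against 0.979 for all neurons, by an alternative chosen after seeing the data. Over its alternatives the neuron ratio ran from 1.55 to 1.90 for Lepr, 1.52 to 1.79 for Mc3r, 1.05 to 1.07 for Insr, 0.928 to 0.989 for Igf1r and 0.988 to 1.03 for Ghr. For Mc4r it ran from 1.06 to 1.11 and for Glp1r from 0.767 to 0.938. TMM scaling shifted the log2 ratio by -0.021 in neurons and by -0.114 in the Opalin cluster. It put the Igf1r interval in neurons below 1 (0.933 to 0.997). The Mc3r interval in neurons included 1 with at most 1% mitochondrial UMIs. The Ghr interval in the Opalin cluster (0.611, 0.352 to 1.03) lay below 1 with TMM factors (0.565), with at most 1% mitochondrial UMIs (0.555) and without the highest nucleus (0.571), at levels no higher than free RNA. All 117 alternative values of the 15 glial ratios and all 82 of the sub-cluster ratios stayed within their main intervals. Of 22 sub-cluster intervals that excluded 1, 5 included it without the highest nucleus of each library, those named above for Lepr, Mc4r and Ghr and that of Insr in Samd3 Il31ra (1.18, 1.00 to 1.39). Subtraction of free RNA moved 10 of 84 levels out of their interval. Among them were the aged neuron levels of Igf1r (to 142 CPM) and Ghr (to 164 CPM) and the aged Anln level of Igf1r (to 293 CPM). In the Opalin cluster Igf1r moved from 214 to 250.5 CPM aged and from 193 to 216 CPM young. Insr moved there from 138 to 161 CPM aged and from 135 to 151 CPM young. The Opalin and Anln clusters, defined by the main clustering, were not recomputed with doublets kept, and at Leiden resolution 2 only by weighting their finer parts alike. That weighting and the removal of committed precursors were chosen after seeing the data. Of the list genes named in those clusters, only Pik3r3 and Rictor in precursors left their main intervals under them. No list median changed sign. Using barcodes up to 500 UMIs as free RNA was also chosen after seeing the data. No paired analysis was possible because each age has 1 library, and leaving out a library leaves no comparison. Depth limits Lepr, Mc3r, Mc4r and Glp1r in glia, where most counts are 0 to 4 UMIs.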
